A study of Rattus norvegicus with 8 samples.

Results

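Antioxidant enzymes were examined as a group of 10 genes chosen by symbol: the superoxide dismutases Sod1, Sod2 and Sod3, the peroxide-removing enzymes Cat, Gpx1, Gpx3, Gpx4 and Prdx1, and the reductases Nqo1 and Txnrd1. All 10 were found among the 32623 genes of the count files, and all 10 lay among the 11682 genes that were tested. RNA came from the epigastric outflow vein of arteriovenous fistulas (AVFs) in 8 Sprague Dawley rats, 21 days after surgery. In 4 rats (3 females and 1 male) the vein had been wrapped with a nanofiber scaffold carrying β-aminopropionitrile (BAPN), an inhibitor of the lysyl oxidases, and in 4 rats (2 females and 2 males) with a vehicle scaffold of the same make without the drug. Every vein therefore carried a scaffold and a fistula, no genetic modification is named, and ages are not given. Lysyl oxidases oxidize lysines in collagen and elastin and release hydrogen peroxide as they do so. The comparison of BAPN with vehicle thus asks how transcripts of the enzymes that handle superoxide and peroxide differ when that reaction is inhibited.

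Superoxide dismutases turn superoxide into hydrogen peroxide, and catalase, glutathione peroxidases and peroxiredoxins then reduce the peroxide. Each family has members in separate places: Sod1 in the cytosol, Sod2 in mitochondria, Sod3 in the extracellular matrix of the vessel wall, where it binds heparan sulfate, and Gpx3 as the secreted glutathione peroxidase. Gpx1, Gpx3, Gpx4 and Txnrd1 are selenoproteins, and the transcription factor NRF2 acts on several of the genes, Nqo1 among them, through antioxidant response elements.

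Libraries with BAPN held 45039451 to 52241007 counted reads and vehicle libraries 19548203 to 22442050, so that sequencing depth separated the groups and cannot be told apart from treatment. Each of the 10 genes had between 294 and 63628 reads per library, so counting error was small beside the spread between rats. Levels are given in counts per 1000000 counted reads (CPM) after TMM normalization, which removes depth and composition differences between libraries but not gene length, so CPM shows the share of reads a gene takes and not its transcript level relative to other genes. Among all tested genes, edgeR called 16.8% at an adjusted p (FDR) below 0.05, 7.5% as higher and 9.25% as lower with BAPN. With total counts as the only scaling, 504 genes were called higher and 1161 lower, in place of 876 and 1081. Against this background, 4 of the 10 enzymes were called. Prdx1 and Sod2 were higher in BAPN-treated veins, and Sod3 and Gpx3 were lower. The groups did not overlap for 5 of the 10 (these 4 and Sod1), against 24.7% of tested genes. The median log2 fold change of the 10 was 0.25, and that of all tested genes was 0.02.

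The regions around the start sites of the genes that were called are shown because antioxidant response elements lie in such regions of many genes of this kind. Windows of 300 bases, from 250 before to 50 after the start, were taken from RefSeq (assembly GRCr8) for 9 of the 10 genes, 12 windows in all. No window for Sod3 was used here. They are printed 5′ to 3′ on the strand of the gene. Capitals mark the core of the antioxidant response element, TGACNNNGC, found on either strand.
Sod2 (chr1:50050119-50050418, minus strand): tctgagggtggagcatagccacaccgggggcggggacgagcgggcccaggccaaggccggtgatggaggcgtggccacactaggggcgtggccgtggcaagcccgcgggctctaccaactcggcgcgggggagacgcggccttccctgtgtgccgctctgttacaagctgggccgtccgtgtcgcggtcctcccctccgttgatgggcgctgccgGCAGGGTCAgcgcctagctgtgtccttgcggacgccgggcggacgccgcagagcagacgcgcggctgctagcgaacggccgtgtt
Prdx1 (chr5:135383656-135383955, plus strand): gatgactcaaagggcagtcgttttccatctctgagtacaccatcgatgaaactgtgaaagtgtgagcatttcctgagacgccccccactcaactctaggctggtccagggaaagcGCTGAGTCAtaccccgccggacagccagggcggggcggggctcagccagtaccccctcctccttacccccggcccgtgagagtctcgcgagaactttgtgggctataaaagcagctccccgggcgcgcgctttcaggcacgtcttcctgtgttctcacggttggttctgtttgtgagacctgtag
Gpx3 (chr10:39529085-39529384, plus strand): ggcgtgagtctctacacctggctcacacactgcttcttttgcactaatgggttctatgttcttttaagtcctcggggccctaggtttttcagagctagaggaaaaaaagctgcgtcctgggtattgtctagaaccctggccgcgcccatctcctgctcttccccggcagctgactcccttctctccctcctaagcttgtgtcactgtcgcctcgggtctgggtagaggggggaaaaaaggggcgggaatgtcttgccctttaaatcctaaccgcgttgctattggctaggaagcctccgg

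The core was present once in the Sod2 window, starting 35 bases before the start site, and once in the Prdx1 window, starting 135 bases before it. In both it read on the minus strand of the gene. In Prdx1 it shares bases with an AP-1 site (TGANTCA), of which that window holds 2. The Gpx3 window held neither motif. Among the other windows, 1 of the 2 of Txnrd1 held the core, and those of Sod1, Cat, Gpx1, Gpx4 and Nqo1 did not. Of all 33469 windows in the table, 12.1% held the core and 7.33% an AP-1 site, counting both strands. A match describes these letters only, and no binding was measured.

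Among the superoxide dismutases, the mitochondrial enzyme rose with BAPN while the extracellular enzyme fell. Sod2 (ENSRNOG00000019048) was at 510.5, 370, 408.5 and 309 CPM in BAPN 1 to 4 and at 222, 279, 188 and 161.5 CPM in Vehicle 1 to 4. The lowest BAPN vein, that of the male, lay above the highest vehicle vein. Means were 399 ± 84.7 CPM and 213 ± 50.5 CPM (SD, n = 4 per group), a 1.88-fold difference (log2 fold change 0.91, standard error 0.21, edgeR FDR 0.0241). Leaving out BAPN 3, Vehicle 1 or Vehicle 3 ended the call, with FDRs of 0.0586, 0.0636 and 0.0559.

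Sod3 (ENSRNOG00000003869) was at 163, 181.5, 107 and 93.2 CPM in BAPN 1 to 4 and at 323, 209, 266.5 and 343 CPM in Vehicle 1 to 4. All BAPN veins were below all vehicle veins, and the BAPN veins split into a higher pair (BAPN 1 and 2) and a lower pair (BAPN 3 and 4). Means were 136 ± 42.7 CPM and 285 ± 60.1 CPM (SD, n = 4 per group), 2.10-fold lower with BAPN (log2 fold change -1.07, standard error 0.24, edgeR FDR 0.0237). Dropping any one of BAPN 3, BAPN 4 and Vehicle 1 ended the call (FDRs of 0.0652, 0.0509 and 0.0661), as did taking the replicate number as a block (FDR 0.0704).

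Sod1 (ENSRNOG00000002115), the copper and zinc enzyme of the cytosol, varied least within groups among the dismutases. It was at 136, 136, 150 and 159.5 CPM in BAPN 1 to 4 and at 120, 117, 122 and 103.5 CPM in Vehicle 1 to 4. The groups did not overlap, but the difference was 1.26-fold and did not reach the threshold in edgeR (log2 fold change 0.33, standard error 0.11, FDR 0.0586). The 95% interval from limma-voom ran from 0.09 to 0.57, and DESeq2 called the gene (FDR 0.0156).

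**Figure D1:**
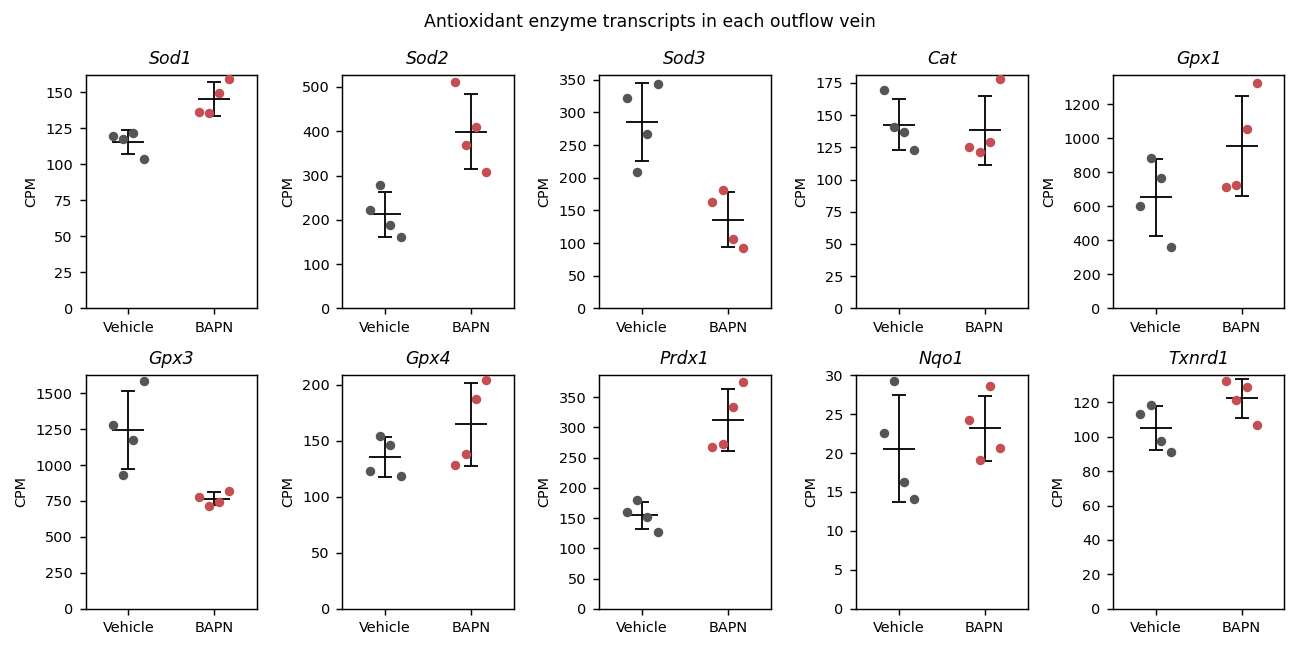
CPM of the 10 antioxidant enzymes in each outflow vein (points, replicates 1 to 4 from left to right within a group), with the group mean and SD (black). Every BAPN point lies above every vehicle point for Sod1, Sod2 and Prdx1 and below every vehicle point for Sod3 and Gpx3. The groups overlap for the other 5 genes.

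Among the peroxide-removing enzymes, Prdx1 rose, Gpx3 fell, and Cat, Gpx1 and Gpx4 did not pass the test. Prdx1 (ENSRNOG00000017194), the cytosolic peroxiredoxin that is reduced again by thioredoxin, was at 267, 272, 334 and 375 CPM in BAPN 1 to 4 and at 159, 180.5, 152 and 127 CPM in Vehicle 1 to 4. The gap between the groups was wider than the range of the vehicle veins. Means were 312 ± 51.6 CPM and 154.8 ± 21.98 CPM (SD, n = 4 per group), a 2.01-fold difference (log2 fold change 1.01, standard error 0.16, edgeR FDR 0.00965). Among the 10 enzymes, Prdx1 alone stayed past the threshold whichever of the 8 rats was left out (largest FDR 0.035, without Vehicle 1). The RefSeq table of gene names holds 7 pseudogenes of Prdx1, 4 of Gpx4 and 1 of Sod2. None is listed by such a name in the count files, and how reads shared with them were counted is not given in the sources used here.

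Gpx3 (ENSRNOG00000052564), the secreted selenoenzyme, was at 778, 717, 744 and 820 CPM in BAPN 1 to 4 and at 1280, 932.5, 1175 and 1584 CPM in Vehicle 1 to 4. The BAPN veins were close to each other (coefficient of variation 5.82%), and the vehicle veins were more spread (21.7%). Means were 765 ± 44.5 CPM and 1243 ± 270 CPM (SD, n = 4 per group), 1.63-fold lower with BAPN (log2 fold change -0.70, standard error 0.18, edgeR FDR 0.0318). Whichever rat was left out, Gpx3 stayed lower, but it was still called only without Vehicle 2 (FDR 0.017) and missed the threshold in the other 7 fits, with FDRs from 0.0558 to 0.0824. It was also lost with sex as a covariate (FDR 0.0691) and with the replicate block (FDR 0.074).

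Gpx1 (ENSRNOG00000048812), the abundant intracellular glutathione peroxidase, ranged from 364 CPM in Vehicle 4 to 1328 CPM in BAPN 4. In BAPN 1 to 3 it was at 712, 724 and 1057 CPM and in Vehicle 1 to 3 at 603, 887 and 765 CPM, so the groups overlapped. It had the highest coefficient of variation of the 10 in the vehicle veins, 34.6%. Its log2 fold change was 0.55 with a 95% interval from -0.14 to 1.29 (edgeR FDR 0.225). It was 0.33 without BAPN 4, 0.35 without Vehicle 4 and 0.73 without Vehicle 2. Gpx4 (ENSRNOG00000013604), which reduces lipid peroxides in membranes, averaged 164 ± 37.2 CPM in BAPN veins and 135 ± 17.5 CPM in vehicle veins (SD, n = 4 per group; log2 fold change 0.28, 95% interval -0.12 to 0.65, edgeR FDR 0.274). Leaving out BAPN 4 brought this down to 0.15. Its order within the BAPN group, with BAPN 4 highest at 204 CPM and BAPN 1 lowest at 128 CPM, was that of Gpx1.

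Cat (ENSRNOG00000008364), the peroxisomal catalase, was the member with the smallest difference. It was at 125, 121, 129 and 178 CPM in BAPN 1 to 4 and at 169, 141, 137 and 123 CPM in Vehicle 1 to 4. The highest value came from the BAPN male and the next from a vehicle female. The log2 fold change was -0.04 with a 95% interval from -0.40 to 0.29 (edgeR FDR 0.858), and it took the opposite sign without BAPN 1, BAPN 2 or Vehicle 1.

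Of the reductases, neither passed the test. Txnrd1 (ENSRNOG00000009088), the cytosolic thioredoxin reductase, averaged 122 ± 11.5 CPM in BAPN veins and 105 ± 12.8 CPM in vehicle veins (SD, n = 4 per group; log2 fold change 0.22, 95% interval -0.06 to 0.50, edgeR FDR 0.223). Nqo1 (ENSRNOG00000012772), a quinone reductase that is widely used as a readout of NRF2 activity, was at 24.3, 19.1, 28.6 and 20.7 CPM in BAPN 1 to 4 and at 22.6, 29.3, 16.2 and 14.1 CPM in Vehicle 1 to 4. Both its highest and its lowest value came from vehicle veins, Vehicle 2 and Vehicle 4. Its log2 fold change was 0.17 (95% interval -0.29 to 0.73, edgeR FDR 0.62). With 1 rat left out it ran from 0.030 (without Vehicle 4) to 0.39 (without Vehicle 2).

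**Figure D2:**
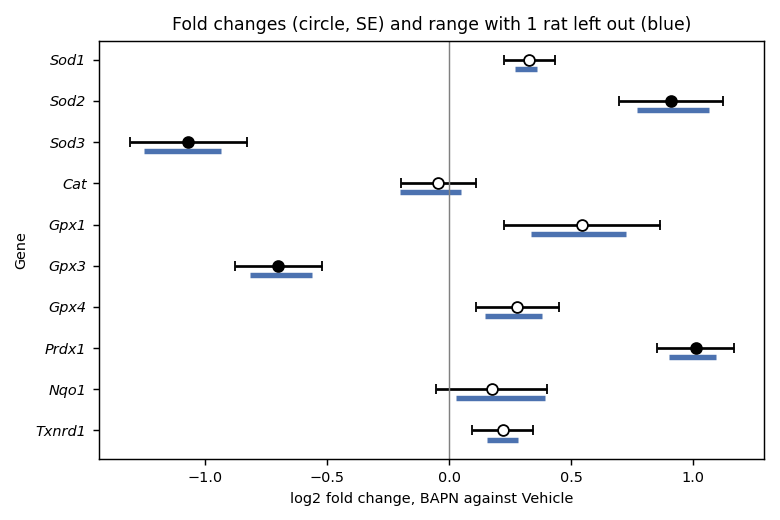
Log2 fold changes of BAPN against vehicle for the 10 enzymes. Circles are edgeR estimates, filled where the FDR was below 0.05, with the standard error from limma-voom, and blue bars span the 8 fits that left out 1 rat. The blue bar of Cat crosses 0, and those of the other 9 enzymes, called or not, stay on one side of it.

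Within each vein the ratio of an extracellular isoenzyme to its cytosolic partner does not depend on library scaling, and it is given for 2 pairs. Both pairs were chosen with the enzymes' own differences known. The log2 ratio of Sod3 to Sod1 in BAPN 1 to 4 was 0.26, 0.42, -0.49 and -0.77, whereas Vehicle 1 to 4 gave 1.43, 0.83, 1.13 and 1.73. It was lower in 4 of 4 BAPN veins, by 1.43 on average. Since neither gene of this pair overlapped between the groups and they moved apart, the ratio had to separate, and it is given as a description with no test. The log2 ratio of Gpx3 to Gpx1 in BAPN 1 to 4 was 0.13, -0.014, -0.51 and -0.70, whereas Vehicle 1 to 4 gave 1.09, 0.071, 0.62 and 2.12. It was lower by 1.25 on average, the groups overlapped by 1 vein (Vehicle 2), and the difference did not pass the test (exact two-sided permutation test over 70 arrangements, p = 0.0571). Without Vehicle 4 the mean difference was -0.86.

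**Figure D3:**
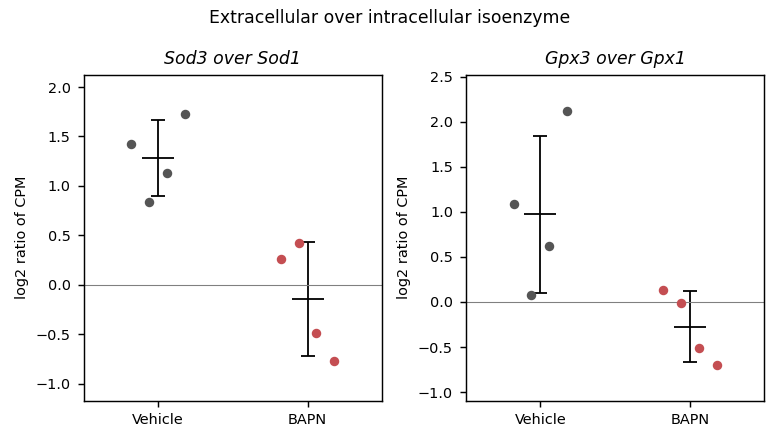
Log2 ratio of CPM of the extracellular to the cytosolic isoenzyme in each vein (points, replicates 1 to 4 from left to right), with group mean and SD. All 4 BAPN veins lie below all vehicle veins for Sod3 over Sod1, and Vehicle 2 lies among the BAPN veins for Gpx3 over Gpx1. The axes do not start at 0.

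The vein of Vehicle 4 took the extreme position for 9 of the 10 enzymes. It was the lowest of all 8 veins for 7 of them (Sod1, Sod2, Gpx1, Gpx4, Prdx1, Nqo1 and Txnrd1) and the highest for 2 (Sod3 and Gpx3). The vein of BAPN 4 was the highest for 5 (Sod1, Cat, Gpx1, Gpx4 and Prdx1) and the lowest for Sod3. Both rats were males, and the number of males differed between the groups. Vehicle 3, the other male, was the lowest for 0 and the highest for 0 of the 10 enzymes. With sex as a covariate Prdx1 (FDR 0.0255), Sod2 (FDR 0.0334) and Sod3 (FDR 0.0457) were called and Gpx3 was not. Among females alone, 3 against 2, edgeR called 0 of the 10 (4 at an unadjusted p below 0.05) and 0.762% of tested genes. The log2 fold changes there were 0.78 for Prdx1 and Sod2, -0.82 for Sod3 and -0.57 for Gpx3, in the same direction as over 8 rats. Those of the enzymes that were not called were 0.24 for Sod1, -0.31 for Cat, 0.16 for Gpx1, 0.13 for Gpx4, -0.11 for Nqo1 and 0.14 for Txnrd1. The interaction of sex and treatment, which rests on 1 BAPN male, had FDRs from 0.279 (Cat) to 0.978 (Sod2) in edgeR. It passed the FDR threshold for 0 of the 11682 genes tested, with 1442 at an unadjusted p below 0.05.

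The genes around these enzymes were counted in 8 lists chosen by function, with 84 tested genes, of which 10 were called higher and 3 lower (15.5%, against 16.8% of all tested genes). By direction, 7.5% of all tested genes were called higher and 9.25% lower. The number higher was 5 with total counts only, 4 with sex as a covariate and 1 without Vehicle 1. Of the called genes named here, Glrx, Glrx2, Mgst2, Me1, Lrp8, Selenon and Selenok lost their calls with sex as a covariate, and all but Glrx3 with the replicate block. Glrx, Glrx2, Mgst2 and Selenok lost theirs with total counts only. The thioredoxin and glutaredoxin system, which hands electrons to peroxiredoxins and to oxidized proteins, held 5 of the 10 higher calls, with 5 of 14 higher and 0 lower (median log2 fold change 0.29). That count of 5 fell to between 1 (without Vehicle 1) and 4 (without Vehicle 2) when 1 rat was left out. It was 2 with total counts only or with sex as a covariate, and 1 with the replicate block. Txn1, the thioredoxin that reduces Prdx1, was at 224, 197, 306 and 294 CPM in BAPN 1 to 4 and at 103, 141, 85.6 and 55.0 CPM in Vehicle 1 to 4, without overlap (log2 fold change 1.41, standard error 0.29, edgeR FDR 0.0161). Without Vehicle 1 its FDR was 0.0504. The glutaredoxins Glrx3 (0.72, FDR 0.0107), Glrx (0.72, FDR 0.0437) and Glrx2 (0.53, FDR 0.0361) were also called, with overlapping groups for Glrx. Of these 4 genes, Glrx3 alone kept its call in all 8 fits that left out 1 rat, and Glrx and Glrx2 lost theirs in 7 of the 8, all but the fit without Vehicle 2. Txnip, the inhibitor of thioredoxin, was at 882 ± 85.0 CPM and 876 ± 54.1 CPM (SD, n = 4 per group; log2 fold change 0.01, edgeR FDR 0.97).

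Among the other peroxiredoxins and glutathione peroxidases, 1 of 7 was called. Prdx3, the mitochondrial peroxiredoxin, averaged 46.2 ± 3.48 CPM in BAPN veins and 33.6 ± 1.42 CPM in vehicle veins (SD, n = 4 per group; log2 fold change 0.46, edgeR FDR 0.0204), without overlap. Without Vehicle 1 its FDR was 0.0583. Prdx5 had a larger log2 fold change, 1.10, but was at 127 CPM in Vehicle 4 and 421 CPM in Vehicle 2, above BAPN 2 at 408 CPM, and missed the threshold (edgeR FDR 0.055, DESeq2 FDR 0.00825). Prdx2 was at 144 ± 14.0 CPM and 116 ± 4.71 CPM (log2 fold change 0.31, edgeR FDR 0.0689, DESeq2 FDR 0.0221).

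Of 16 genes of glutathione synthesis, recycling and transfer, 1 was higher, Mgst2, a microsomal glutathione transferase (log2 fold change 0.65, edgeR FDR 0.0451), and 1 lower, Me1, an NADPH-forming malic enzyme (-0.43, FDR 0.0478). Mgst2 lost its call in 7 of the 8 fits that left out 1 rat, all but that without BAPN 2, and Me1 in 6. The call of Mgst2 was also lost with equal library totals, total counts only or no filter on low counts, and that of Me1 with upper quartile scaling or another filter. Slc3a2, a subunit of the cystine transporter, was at 151 ± 12.7 CPM with BAPN and 137 ± 7.37 CPM otherwise (SD, n = 4 per group; log2 fold change 0.14, FDR 0.355). Of the 9 NRF2 pathway regulators, 0 were called by edgeR and 0 by DESeq2, with 1 at an unadjusted p below 0.05 (median log2 fold change 0.02). NRF2's own gene Nfe2l2 averaged 171 ± 31.5 CPM in BAPN veins and 135 ± 18.6 CPM in vehicle veins (SD, n = 4 per group; log2 fold change 0.35, FDR 0.148), and Sqstm1, which binds the NRF2 inhibitor KEAP1, at 444 ± 29.0 CPM and 393 ± 29.3 CPM (0.18, FDR 0.32).

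Sod1 and Sod3 need copper and the glutathione peroxidases named above need selenium. Of 13 further genes that handle these elements, 1 was called. Lrp8, a receptor that takes up selenoprotein P, rose from 6.01 ± 1.05 to 12.2 ± 2.93 CPM (SD, n = 4 per group; log2 fold change 1.02, edgeR FDR 0.0206), and without Vehicle 1 its FDR was 0.0613. Selenop, the secreted selenium carrier itself, was lower in every BAPN vein than in any vehicle vein, at 316 to 563.5 CPM against 602 to 816 CPM, and missed the threshold in edgeR (-0.62, FDR 0.0567) but not in DESeq2 (FDR 0.00996). Atox1, a copper chaperone, was at 97.2 ± 27.0 CPM and 78.7 ± 22.1 CPM (0.30, FDR 0.395). Of 10 other selenoproteins, 3 were called, each losing its call in 5 of the 8 fits that left out 1 rat. Selenos (0.59, FDR 0.0263) and Selenok (0.50, FDR 0.0316), both of the endoplasmic reticulum membrane, were higher and Selenon (-0.75, FDR 0.0353) was lower, while Selenof was at 292 ± 29.1 CPM and 250 ± 38.2 CPM (0.23, FDR 0.283).

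On the side of peroxide and superoxide production, all 8 amine oxidases had a negative log2 fold change (median -0.59). edgeR called 0 of them, with 4 at an unadjusted p below 0.05, and DESeq2 called 4, against 27.4% of all genes tested by DESeq2. Lox averaged 436 ± 82.9 CPM in BAPN veins and 490 ± 176 CPM in vehicle veins (SD, n = 4 per group; log2 fold change -0.17, FDR 0.678), and Loxl1 at 426 ± 64.4 CPM and 686 ± 213 CPM (-0.69, FDR 0.0623, DESeq2 FDR 0.0131) without overlap. The Loxl1 groups nearly touched, at 495.8 CPM in BAPN 2 and 497.3 CPM in Vehicle 2. Of 7 NADPH oxidase subunits, 1 was called. Nox4, the superoxide and peroxide producing oxidase of vascular cells, fell from 38.5 ± 5.36 to 22.7 ± 4.33 CPM (log2 fold change -0.76, FDR 0.0199). Its call was lost in 2 of the 8 fits that left out 1 rat (largest FDR 0.0546, without Vehicle 1). The phagocyte subunits Cybb (0.57, FDR 0.318) and Cyba (0.56, FDR 0.172) did not pass the test. Cybb ranged from 847 CPM in Vehicle 4 to 4792 CPM in BAPN 4.

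**Figure D4:**
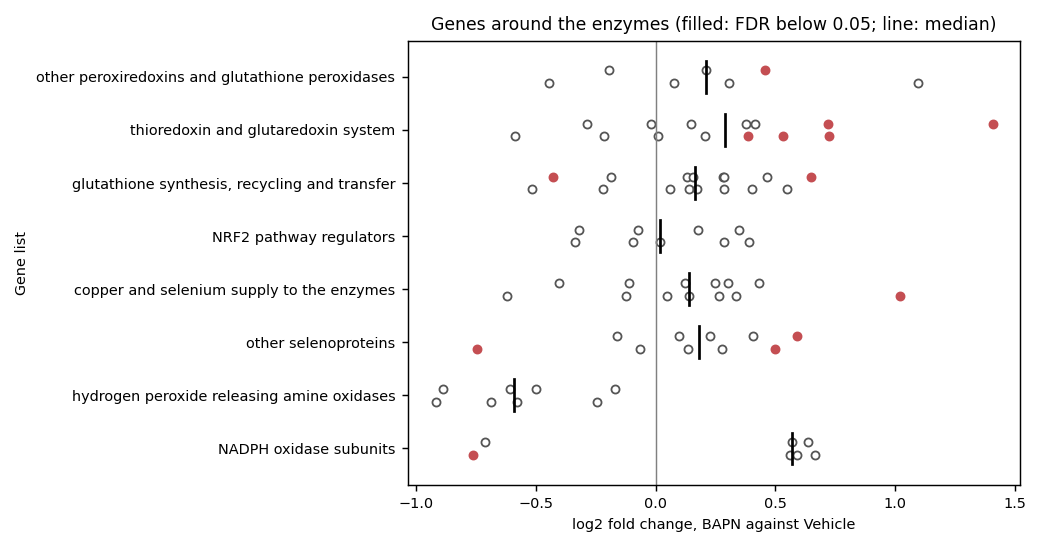
Log2 fold change of BAPN against vehicle for each tested gene of the 8 lists around the enzymes (1 point a gene, filled where the edgeR FDR was below 0.05), with the median of the list as a black line. The 5 filled points of the thioredoxin and glutaredoxin system lie at positive values, and all 8 amine oxidases lie at negative ones.

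Markers of the cell types that the vein could hold were counted in the same fit. Over all tested genes, edgeR called 7.5% higher and 9.25% lower, and DESeq2 called 27.4% in either direction. In bulk RNA, fewer cells of a type and less RNA per cell cannot be told apart. Markers of smooth muscle, fibroblasts and endothelium were detected, as were those of the other cell types listed. Of 10 smooth muscle markers, 6 were called lower and 0 higher by edgeR (7 lower by DESeq2), with summed levels of 1820 to 4727 CPM with BAPN and 3657 to 6793 CPM with vehicle. Tagln (-0.64, FDR 0.217) and Acta2 (-0.75, FDR 0.26), which took the most reads of this list, did not pass the test. With 1 rat left out Tagln ran from -1.08 to -0.42 and was called in 1 of the 8 fits. Acta2 ran from -1.28 to -0.44 and was called in 0. Of 8 endothelial markers tested, 2 were called lower by edgeR and 4 by DESeq2, and the sums of 495 to 668 CPM and 826 to 1574 CPM did not overlap. Those with the highest mean CPM were Tie1 (-0.32, FDR 0.198) and Vwf (-1.99, FDR 0.0389), which lost its call in 5 of the 8 fits that left out 1 rat. Vwf was at 768 CPM in Vehicle 1, and without that rat its log2 fold change was -1.13. Of 10 fibroblast markers, 1 was lower, with sums of 23850 to 37568 CPM and 29349 to 97321 CPM, which Col1a1 (-1.002, FDR 0.118) and Col3a1 (-0.84, FDR 0.119) made up for the most part. Both missed the threshold in edgeR and passed it in DESeq2 (FDR 0.0278 and 0.0273), which called 6 of the 10 fibroblast markers, all lower. Without Vehicle 4 the log2 fold changes were -0.55 for Col1a1 and -0.52 for Col3a1. The sums of smooth muscle and of fibroblast markers overlapped between the groups. The highest of both came from Vehicle 4, where Sod3 and Gpx3 were highest. Within the BAPN group both sums were highest in BAPN 2. There Sod3 was the highest of that group, but Gpx3 was the lowest of all veins, at 717 CPM.

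Of 12 macrophage markers, 2 were higher and 0 lower, and the sums of 29041 to 42228 CPM with BAPN and 6647 to 23556 CPM with vehicle did not overlap. Taken singly, the groups did not overlap for 2 of the 12, Lyz2 among them, against 24.7% of tested genes. Lyz2, which took most of the summed CPM, had a log2 fold change of 1.28 (edgeR FDR 0.0722, DESeq2 FDR 0.00765), and Cd68 one of 0.54 (FDR 0.261). DESeq2 called 4 of the 12, all higher, against 27.4% of all tested genes in either direction. The lowest macrophage sum was that of Vehicle 4, where Prdx1, Sod2 and Gpx1 were lowest. That vein also had the lowest adipocyte sum, 1005 CPM. Within the BAPN group the lowest macrophage sum was that of BAPN 1. There Prdx1 and Gpx1 were the lowest of that group, but Sod2 was the highest of all veins, at 510.5 CPM. The 5 red cell markers tested, whose cells are rich in Cat, Gpx1 and Prdx2, had 0 called by edgeR or DESeq2 and 0 at an unadjusted p below 0.05, with 736 to 1994 CPM and 873 to 2187 CPM in sum, and Hba-a1 had a log2 fold change of -0.04 (FDR 0.949) and Hba-a2 one of 0.13 (FDR 0.809). No marker of these lists that the files name was at 0 in all veins. The part of these cell types in the differences of the enzymes was not tested.

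**Figure D5:**
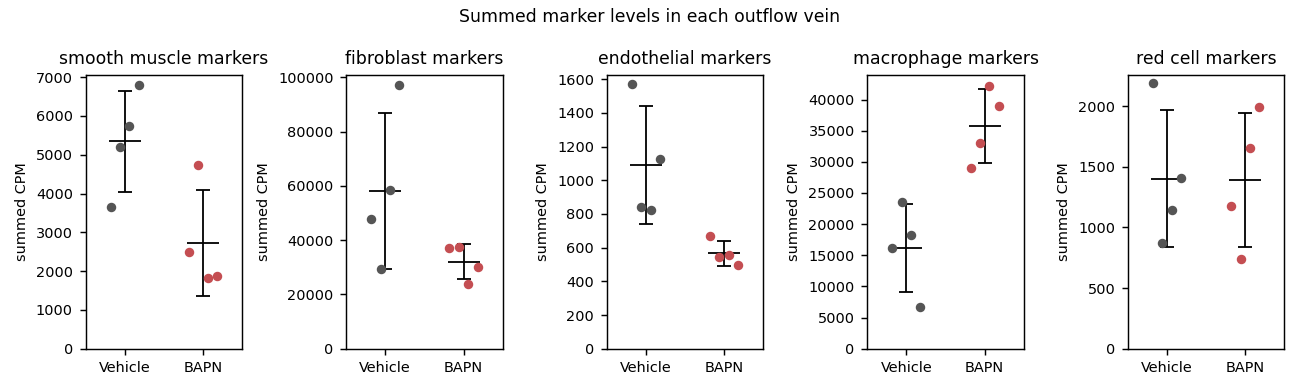
Summed CPM of marker genes in each vein (points, replicates 1 to 4 from left to right), with group mean and SD, for 5 cell types. The BAPN sums lie above all vehicle sums for macrophage markers, below them for endothelial markers, and overlap with them for smooth muscle, fibroblast and red cell markers. Most of each macrophage sum is Lyz2.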

How the data were processed

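RNA was measured by bulk sequencing in 8 outflow veins, 4 with BAPN and 4 with vehicle scaffolds. The authors made stranded libraries from total RNA without its ribosomal part and deposited raw counts of reads per Ensembl gene, 1 file per animal. The submitters' processing notes name bcl2fastq 2.17, Trim Galore and STAR. The counter, its strand setting and the genome build are not given in the sources used here. Groups, sex and replicate numbers came from the labels, which do not say that a number marks a shared batch.

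A minimum base mean of 100 was required of a gene (mean count over 8 libraries after division by DESeq2 size factors), as in the study's methods, which left 11682 genes. The main test was edgeR 4.0.16 (TMM, quasi-likelihood F test, treatment only, R 4.3.3), with p-values adjusted over all of these by Benjamini-Hochberg. Standard errors and 95% intervals came from limma 3.58.1 (voom), and DESeq2 1.42.0 was an alternative. Log2 CPM for permutation tests used a prior count of 2. The p-values cover the spread between these 8 rats. No pair of libraries within a group agreed within counting noise, as 1 library deposited again would (chi-square per degree of freedom from 68.6 to 321). The steps were checked on simulated counts. The enzymes, gene lists and tests were chosen with earlier results of these data known. Of each list around the enzymes, the genes named are up to 4 called genes with the largest change and the 2 with the highest mean CPM, and of each marker list the 2 with the highest mean CPM. For 1 gene that this rule names, the values are not reported here. Alternatives were other scalings, other filters, DESeq2, sex as a covariate, females only, a replicate block, equal library totals and each rat left out. Genes are matched by symbol, and 12 listed symbols were not matched.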

Additional observations from a re-analysis of the deposited data

Results flagged for a closer look

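In 6 of the 116 groups of 4 veins examined for the named genes, 1 vein stood apart from the other 3, by a gap to the nearest that passed Dixon's test at the 95% level. Chance flags about 1 in 20 groups. Among the antioxidant enzymes this held for Cat, at 178.1 CPM in BAPN 4 and 121 to 128.8 CPM in the other BAPN veins. Lrp8 was at 7.576 CPM in Vehicle 3 and 5.351 to 5.571 CPM in the other vehicle veins. The neutrophil marker Csf3r was at 38.29 CPM in BAPN 1 and 17.91 to 20.98 CPM in the others. The milk protein genes stood out in 1 vein of each group. Csn1s1 was at 55.4 CPM in BAPN 2 (others 0.1879 to 6.554) and at 56.44 CPM in Vehicle 2 (others 0.1911 to 4.167), and Lalba was at 11.61 CPM in Vehicle 2 (others 0 to 1.685). The cause of these values was not tested.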

How the results depend on the processing

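Prdx1 and Sod2 kept their calls under every scaling, filter, tool and covariate tried over all 8 rats, and Sod3 under all of these but the replicate block. Leaving out 1 rat moved the number of the 10 enzymes called higher between 1 and 2 and lower between 0 and 2 (main count 2 each), and the related genes between 1 and 11 higher and 0 and 5 lower (main counts 10 and 3). Among females alone 0 enzymes and 0 related genes were called in either direction, and the log2 fold changes were 0.78 for Sod2, -0.82 for Sod3, -0.57 for Gpx3, 0.78 for Prdx1 and -0.11 for Nqo1. With no filter on low counts and with sex as a covariate 1 enzyme was still called lower, Sod3, while Gpx3 lost its call (-0.67 and -0.63). With the covariate the related counts were 4 higher and 1 lower. Total counts only gave 5 related genes higher. DESeq2 gave 15 related genes higher and 8 lower and called Sod1 (0.32). The labels number the replicates alike in both groups, but same-numbered samples deviated together with correlations of only 0.09, -0.26, 0.27 and -0.14, so the numbers were not taken as pairs. With the replicate block edgeR called 556 genes in place of 1957, 0 enzymes as lower (Sod3 -1.10, Gpx3 -0.68) and 1 related gene as higher and 0 as lower. Over all genes, with 1 rat left out the number called ran from 397 without Vehicle 1 to 2215 without Vehicle 2, and calls that were higher made up 30.3% with total counts only and 44.8% with TMM.

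With 1 rat left out, log2 fold changes ran from 0.77 to 1.07 for Sod2, -1.25 to -0.93 for Sod3, -0.82 to -0.56 for Gpx3 and -0.20 to 0.049 for Cat. The ratio of Sod3 to Sod1 ran from -1.61 to -1.22 and that of Gpx3 to Gpx1 from -1.55 to -0.86. Directions of named genes outside the enzymes changed in 38 of 864 fits, for genes that were not called. For Txnip the values were -0.0038 with DESeq2 and its size factors, -0.050 with total counts only, -0.0071 with sex as a covariate and -0.075 among females. Among females they were -0.084 for Atox1, 0.25 for Lox, -0.11 for Cybb, -0.055 for Cd68, -0.20 for Hba-a2, -0.61 for Lpl, -0.074 for Fabp4 and -0.36 for Csn1s1, which was at -1.06 with sex as a covariate. With 1 rat left out the ranges were -0.044 to 0.058 for Txnip, -0.38 to 0.040 for Lox, -0.053 to 0.49 for Csf3r, -0.071 to 0.74 for S100a9, -0.29 to 0.25 for Hba-a1, -0.062 to 0.47 for Hba-a2, -0.15 to 0.70 for Lpl, -0.071 to 0.27 for Tnnt3, -0.18 to 0.081 for Cd4, -1.95 to 3.12 for Csn1s1 and -0.18 to 3.16 for Lalba. The causes of these changes were not tested. Depth, sex balance and treatment were not independent in these 8 rats, and drawing all libraries down to 19548203 reads left the 4 enzymes called.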

Other observations

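In the remaining cell type lists the summed levels overlapped between the groups. Over all tested genes, edgeR called 7.5% higher and 9.25% lower, and DESeq2 called 27.4% in either direction. Of 9 T cell markers tested, 2 were called higher and 0 lower by edgeR and 5 higher by DESeq2 (median log2 fold change 1.02), with summed levels of 386 to 471 CPM with BAPN and 310.0 to 520 CPM with vehicle. Those with the highest mean CPM, Cd4 (-0.07, FDR 0.811) and Lck (0.85, FDR 0.0964), did not pass the edgeR test, and Lck passed that of DESeq2 (FDR 0.0494). Of 5 B cell and plasma cell markers, 2 were called higher by edgeR and 4 by DESeq2 (median log2 fold change 2.55), with sums of 125 to 377 CPM and 130 to 174 CPM. Jchain, which links immunoglobulin chains, was at 106 ± 68.5 CPM and 17.0 ± 9.71 CPM (SD, n = 4 in each group; log2 fold change 2.64, edgeR FDR 0.0561, DESeq2 FDR 0.0181), and Xbp1 had a log2 fold change of 0.15 (FDR 0.395). Jchain was at 124.5, 145.3 and 150.4 CPM in the BAPN females, BAPN 1 to 3. In the male, BAPN 4, it was at 4.93 CPM, the lowest of all veins. The sum of the list was also lowest in BAPN 4.

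Of 8 adipocyte markers, 1 was called lower by edgeR and 5 by DESeq2, with sums of 2570 to 7645 CPM and 1005 to 5423 CPM, mostly Lpl (0.30, FDR 0.715) and Fabp4 (0.70, FDR 0.269). The median log2 fold change of the list was -1.10, while these members, with the highest mean CPM, had positive values. Neutrophil markers had 2 tested and 0 called by edgeR or DESeq2, with 0 at an unadjusted p below 0.05 (Csf3r 0.25, S100a9 0.27), and sums of 28.1 to 64.6 CPM and 19.2 to 53.5 CPM. Skeletal muscle markers had 2 tested and 0 called by edgeR, 1 by DESeq2 and 1 at an unadjusted p below 0.05 (Tnnt3 0.09, Acta1 -2.50, and -1.32 for Acta1 without Vehicle 2, at 34.8 CPM), with sums of 18.2 to 32.7 CPM and 20.6 to 79.1 CPM. Mammary epithelium markers had 4 tested and 0 called by edgeR or DESeq2, with 1 at an unadjusted p below 0.05 and sums of 4.38 to 106 CPM and 8.07 to 93.8 CPM.

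Of the listed genes around the enzymes, 8 had too few reads for the test (Gpx2, Chac1, Gsta4, Selenow, Dio1, Dio2, Duox2 and Nox1). The intestinal glutathione peroxidase Gpx2 reached at most 0.547 CPM in any vein, and the oxidases Nox1 and Duox2 at most 5.13 and 5.29 CPM.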
